A study of Rattus norvegicus with 22 samples.

Results

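The immediate early genes described here were Fos, Fosb, Jun, Junb, Egr1, Nr4a1, Npas4, Arc, Ier2 and Dusp1 in rat ventral cervical spinal cord. They were found by their exact symbols in the deposited count table, which gave 10 of 32883 genes. Immediate early genes are transcribed quickly after a cell is stimulated, without the need for new protein, and their transcripts are short-lived. Most encode transcription factors, and neuroscientists use their RNA as a sign of recent neuronal activity, although growth factors, hormones and stress also induce them in glia and vessels. Many of their promoters hold binding sequences for serum response factor or CREB, which kinases activate within minutes of a stimulus.

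The study asked how removal of the gonads changes gene expression in the ventral spinal cord of both sexes. RNA sequencing was done on cervical segments C3 to C6 of Sprague-Dawley rats aged 3 to 4 months, with the dorsal part of the cord discarded and 1 library per rat. There were 5 intact males (rats 1, 2, 3, 5 and 6), 5 castrated males (GDX, rats 1, 2, 4, 5 and 6), 6 intact females and 6 ovariectomized females (OVX), and tissue was taken 2 weeks after the GDX or OVX surgery under deep isoflurane anesthesia. The surgeries were done under isoflurane after a slow-release dose of the opioid buprenorphine, and the controls are described as intact and age-matched. No sham operation and no estrous cycle stage is given in the sources used here. Removal of the gonads therefore cannot be told apart from the surgery itself and its drugs. Library totals ran from 12371756 to 17571887 counted reads.

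The libraries fall into classes of longer and shorter average input fragment size in the study's methods. The longer class holds 7 libraries, those of rats 1, 3 and 6 of the intact males and rats 2, 3, 5 and 6 of the intact females, and the shorter class holds the other 15, all GDX and OVX rats among them. Class therefore moves with gonadectomy, and values with class as a term or in the shorter class alone are given beside many of the called genes. Markers were read beside the tissue label. All 6 motor neuron markers listed, Chat, Slc5a7, Slc18a3, Isl1, Mnx1 and Prph, had reads in every library, with Prph the highest in each. Their summed level was 447 ± 118 CPM (mean ± SD, n = 5) in intact males and 523 ± 66.6 CPM (n = 6) in intact females. The summed level of 6 dorsal horn markers was 2.98 ± 1.47 CPM (n = 5) in intact males and 3.41 ± 1.30 CPM (n = 6) in intact females. With no dorsal sample for comparison, these sums describe the libraries and do not test the label.

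Levels are given as CPM, a count relative to the library's total, scaled with TMM factors, and no level is compared between genes, since gene lengths were not used. Fold changes are on the log2 scale and come from edgeR's quasi-likelihood test, and p-values were adjusted by the Benjamini-Hochberg method over every gene that passed the low-count filter. A gene was called at an adjusted p under 0.1.

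All 10 genes had reads, and 8 of 10 passed the filter. The AP-1 subunit gene Fosb had between 0 and 10 reads per library, and Npas4, a neuron-specific activity-induced transcription factor gene, had between 1 and 14. With no filter, the log2 fold change of Fosb was 0.19 (SE 0.65, adjusted p = 0.906) between GDX and intact males and that of Npas4 was 0.20 (SE 0.51, adjusted p = 0.872). Between OVX and intact females the signs were opposite, at -0.55 (SE 0.64) for Fosb and -0.33 (SE 0.52) for Npas4. The values farthest from 0 over the comparisons made were 0.75 (SE 0.94, adjusted p = 0.914) for Fosb in the difference of responses and -0.66 (SE 0.50, adjusted p = 0.631) for Npas4 in intact males against intact females. With these SEs, differences of such sizes did not pass the test in either gene.

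The spread from rat to rat was read within groups for the genes that passed the filter. The ratio of highest to lowest CPM over all 22 rats was between 1.46 for Jun and 2.56 for Dusp1. Jun had a coefficient of variation of 8.96% within groups, where counting error alone gives 3.10% at its mean of 1043 reads. That of Dusp1 was 21.5% against 8.94% from counting, at a mean of 125 reads, and that of Nr4a1, the nuclear receptor gene also called Nur77, was 11.9% against 9.11%. Ier2 had the highest coefficient of the 8 genes, 21.9% against 14.6%, at a mean of 47.1 reads. The counting errors cover reads only, which carry no molecular identifiers, while the 95% intervals of fold changes come from the fits over rats.

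**Figure D1:**
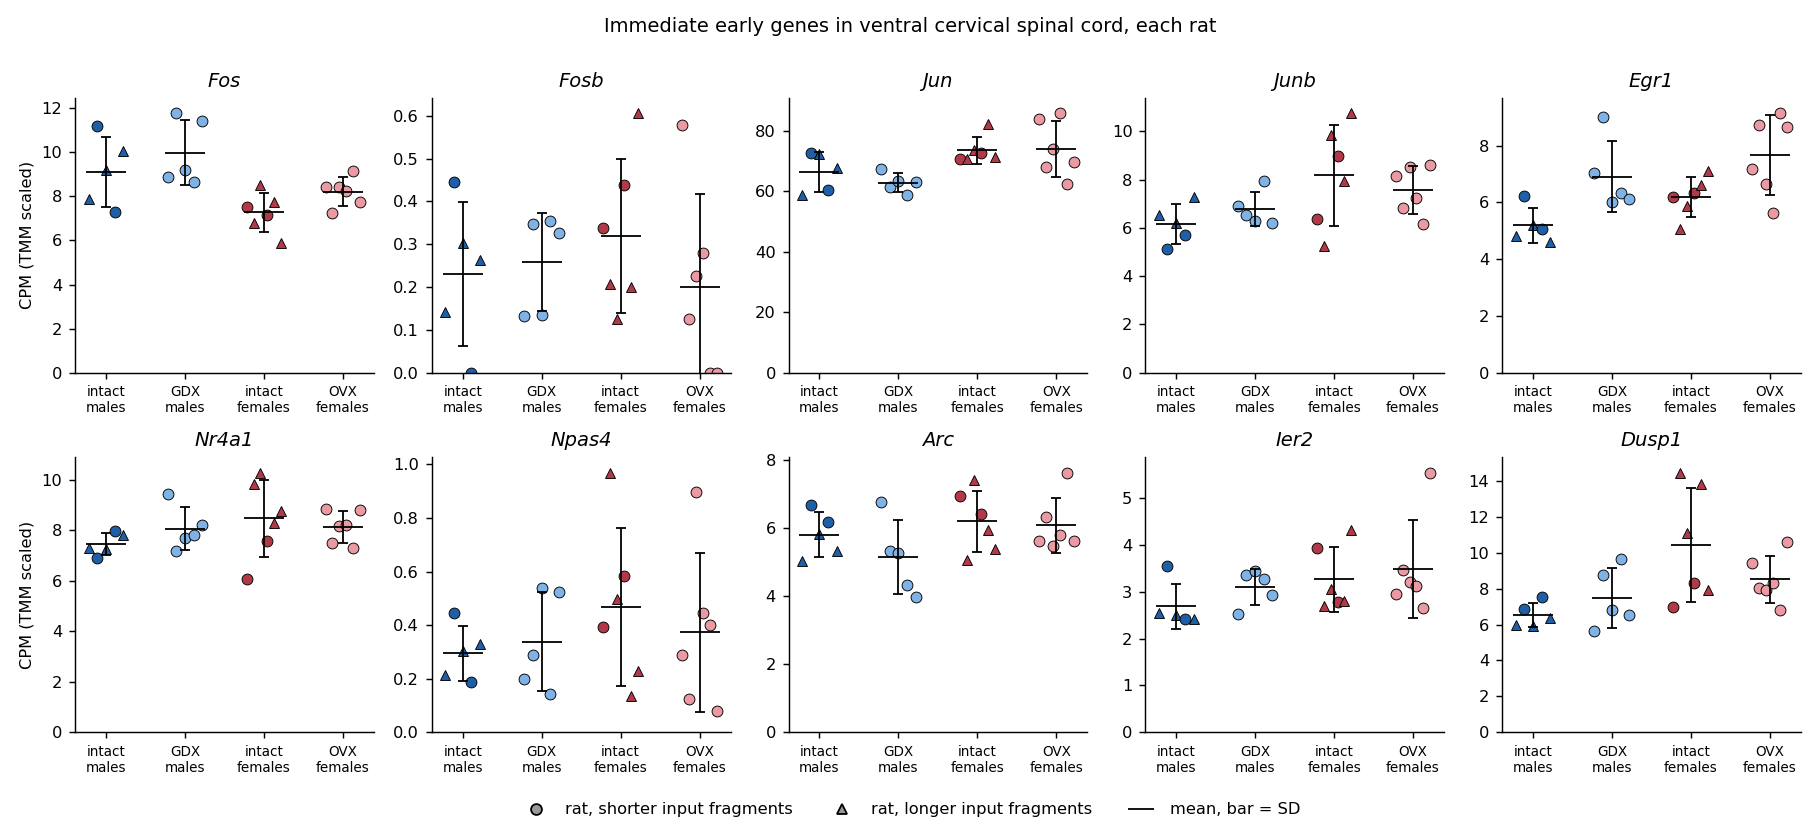
Level of each of the 10 immediate early genes in CPM on the y axis for each of 22 rats by group on the x axis, with mean and SD; triangles are libraries of the longer input fragment class. Egr1 ran from 4.60 to 6.22 CPM in intact males and from 6.01 to 9.01 CPM in GDX males, and Dusp1 was highest in intact females 2 and 5.

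Testis removal was examined in GDX against intact males. Of the 8 genes tested, 1 rose and 0 fell, 12.5% against 13.4% of all 14931 genes tested, so the share was near the background. The gene that rose was Egr1, which encodes a zinc finger transcription factor induced through serum response factor and ERK signaling in neurons and vessels. The median log2 fold change of the 8 genes was 0.14, and that of all genes was 0.00.

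Egr1 (ENSRNOG00000019422) had 4.82, 6.22, 5.22, 5.07 and 4.60 CPM in intact males 1, 2, 3, 5 and 6. In GDX males 1, 2, 4, 5 and 6 it had 7.04, 9.01, 6.01, 6.32 and 6.13 CPM. GDX male 2 stood highest, and the groups overlapped only through intact male 2, which lay above GDX males 4 and 6 and whose library was of the shorter fragment class, like those of all GDX rats. The other intact male of the shorter class, rat 5, lay below every GDX male. The means were 5.19 ± 0.626 CPM in intact and 6.90 ± 1.24 CPM in GDX males (SD, n = 5 each). In the fit GDX males exceeded intact males by 0.42 on the log2 scale (SE 0.14, 95% interval 0.11 to 0.72, adjusted p = 0.0872). With fragment class as a term it was 0.30 (adjusted p = 0.428), and in the shorter class alone, with 2 intact males, it was 0.30 (adjusted p = 0.468). The call was also lost without intact male 1 (adjusted p = 0.172), 3 (0.120), 5 (0.145) or 6 (0.165) and without GDX male 1 (0.113), 2 (0.197) or 5 (0.114), with a log2 fold change of 0.30 without GDX male 2. With RNA integrity number as a term (0.45, adjusted p = 0.135) and without a filter on low counts (0.41, adjusted p = 0.122) it was lost too.

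The promoters of Egr1 and Dusp1 are shown because these 2 genes passed the test in 1 of the comparisons between 2 groups, and Egr1 is known for its serum response factor sites. RefSeq promoters of the build GRCr8 were matched by symbol for 7 of the 10 genes, and the 250 bases before each start were searched on both strands for the CArG box, bound by serum response factor, the CRE TGACGTCA, bound by CREB, the AP-1 site TGAGTCA and the TATA box TATAAA. Fos, Jun and Arc had no promoter matched by symbol and were not searched. Capitals mark the matches, none of which overlap.
Egr1, chr18:26736828-26737077, strand +: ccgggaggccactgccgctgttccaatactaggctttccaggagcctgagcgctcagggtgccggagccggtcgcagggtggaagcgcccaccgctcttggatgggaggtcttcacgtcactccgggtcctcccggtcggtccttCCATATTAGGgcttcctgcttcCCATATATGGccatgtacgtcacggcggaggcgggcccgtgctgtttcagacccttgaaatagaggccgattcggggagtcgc
Dusp1, chr10:17184603-17184852, strand +: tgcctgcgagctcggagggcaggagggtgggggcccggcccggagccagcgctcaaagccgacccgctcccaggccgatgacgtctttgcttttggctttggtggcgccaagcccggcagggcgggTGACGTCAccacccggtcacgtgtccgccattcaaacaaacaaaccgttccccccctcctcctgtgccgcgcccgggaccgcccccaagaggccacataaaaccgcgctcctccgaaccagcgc
The Egr1 window held 2 CArG boxes, from -105 to -96 and from -83 to -74 relative to the start, and the CArG box was found in 1 of the 7 genes and in 1.50% of 33469 promoters. Dusp1 held 1 CRE, from -124 to -117, as did the growth factor induced gene Ier2 from -66 to -59, and 1.59% of all promoters held this sequence. TATAAA was found in Junb and, on the reverse strand, in Fosb, against 12.9% of all promoters. TGAGTCA was in 0 of the 7 windows and in 4.05% of all promoters. A match describes the letters and is no measure of binding.

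The AP-1 subunit genes did not pass the test in GDX males. Fos had 7.87, 11.2, 9.22, 7.30 and 10.05 CPM in intact males 1, 2, 3, 5 and 6. In GDX males 1, 2, 4, 5 and 6 it had 8.90, 11.8, 9.18, 8.66 and 11.4 CPM. The groups overlapped over most of their range. Its log2 fold change was 0.14 (95% interval -0.14 to 0.42, adjusted p = 0.575), that of Jun was -0.08 (-0.22 to 0.06, adjusted p = 0.498) and that of Junb was 0.13 (-0.13 to 0.40, adjusted p = 0.564).

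The remaining genes were not called in GDX males either. Arc, whose product acts at synapses in endocytosis of AMPA receptors, ran from 5.03 to 6.67 CPM in intact and from 3.98 to 6.77 CPM in GDX males, and its log2 fold change was -0.18 (95% interval -0.51 to 0.15). Values were 0.11 (-0.11 to 0.33) for Nr4a1 and 0.21 (-0.16 to 0.59) for Ier2. For Dusp1, the gene of a phosphatase that switches off MAP kinases, it was 0.20 (-0.12 to 0.51, adjusted p = 0.468). The intervals of Jun and Nr4a1 were the narrowest of the 8.

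Genes around the pathway were read from lists. Of 24 other rapid response genes tested in GDX males, 3 rose and 0 fell: the transcription factor genes Klf4 (log2 fold change 0.92, SE 0.18, adjusted p = 0.00909) and Klf2 (0.96, SE 0.24, adjusted p = 0.0221), and Ier5 (0.34, SE 0.11, adjusted p = 0.071). Klf4 had 2.41 to 3.71 CPM in intact and 4.37 to 7.67 CPM in GDX males, so its groups did not overlap. The 3 called genes were 12.5% of this list, against 13.4% of all genes tested. With class as a term the adjusted p was 0.119 for Klf4, 0.239 for Klf2 and 0.248 for Ier5, in the shorter class alone it was 0.143, 0.260 and 0.250, with log2 fold changes of 0.73, 0.67 and 0.34 in both, and Ier5 was called in 4 of 10 fits that left out a rat, being lost without intact male 2, 5 or 6 or GDX male 2, 4 or 5 (adjusted p up to 0.180). Of 5 AP-1 relatives and 6 heat shock genes, 0 were called by edgeR, with 0 in each list at an unadjusted p under 0.05 and 0 called by DESeq2. In OVX females edgeR and DESeq2 called 0 genes of these 3 lists, and the unadjusted p was under 0.05 for 3 of 25 rapid response genes, 0 of 5 AP-1 relatives and 0 of 6 heat shock genes. Of 8 glucocorticoid responsive genes both called 0 in OVX females, 3 had an unadjusted p under 0.05 and 0 lay above 0 (median -0.29). Of 17 upstream kinases and factors edgeR called 0 and DESeq2 1 there, with 2 at an unadjusted p under 0.05. Of 11 neuronal activity effectors both called 0 there, with 1 at an unadjusted p under 0.05.

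Among neuronal activity effectors 1 of 11 rose and 1 fell in GDX males. Ptgs2, which encodes cyclooxygenase-2, rose by 0.73 on the log2 scale (SE 0.23, adjusted p = 0.0634), and the neuropeptide precursor gene Vgf changed by -0.59 (SE 0.12, adjusted p = 0.00984). Of 17 upstream kinases and factors, 2 rose and 1 fell. Mapk3, the gene of the kinase ERK1, had 111 to 120 CPM in intact and 128 to 153 CPM in GDX males, a log2 difference of 0.26 (SE 0.05, adjusted p = 0.00848), and stayed called in each alternative fit. For Creb1, the gene of CREB, the log2 difference was 0.30 (SE 0.07, adjusted p = 0.0185), and for Mrtfa, the gene of a cofactor of serum response factor, it was -0.28 (SE 0.08, adjusted p = 0.0448). Of 8 glucocorticoid responsive genes, Sult1a1 and Pdk4 rose, with log2 fold changes of 1.03 (SE 0.26, adjusted p = 0.0253) and 0.50 (SE 0.13, adjusted p = 0.0282). The called shares of these 3 lists were 18.2%, 17.6% and 25% of 11, 17 and 8 genes, where 13.4% of all genes tested were called. With class as a term Vgf, Mapk3, Mrtfa and Sult1a1 kept their calls, and Ptgs2, Creb1 and Pdk4 did not. In the shorter class alone Mapk3 was the only one of the 7 called (adjusted p = 0.0964), and the log2 fold change was -0.58 for Vgf (adjusted p = 0.121), -0.34 for Mrtfa (0.125), 1.22 for Sult1a1 (0.140), 0.27 for Creb1 (0.185), 0.40 for Ptgs2 (0.493) and 0.46 for Pdk4 (0.243). With RNA integrity number as a term it was 0.110 for Mrtfa, 0.102 for Sult1a1, 0.119 for Pdk4 and 0.133 for Ptgs2. Pdk4 was also lost in a joint fit of all 22 rats (0.219) and Ptgs2 without a filter on low counts (0.107). Mrtfa was also lost without intact male 1 or 2 or GDX male 5 (adjusted p up to 0.115), and Ptgs2 was called only without intact male 2 or GDX male 1 or 5 among the fits that left out a rat (adjusted p up to 0.142 in the others).

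Markers of non-neural cells moved in the same comparison. All 7 tested markers of meninges and fibroblasts rose in GDX males, with a median log2 fold change of 1.57. Their summed level was 613, 423, 446, 378 and 321 CPM in intact males 1, 2, 3, 5 and 6 and 589, 629, 1009, 1753 and 1228 CPM in GDX males 1, 2, 4, 5 and 6, with no marker at 0. All 5 endothelial markers rose (median 0.54), from summed levels of 77.9 to 110 CPM in intact to 120 to 165 CPM in GDX males, with none at 0. Of 5 pericyte and smooth muscle markers 3 rose, as did 2 of 3 Schwann cell markers by edgeR, where DESeq2 called 0. The astrocyte markers Gfap and Aqp4, the oligodendrocyte marker Mbp and the erythroid marker Hbb (log2 fold change 1.45) rose, and 2 of 5 neuron markers and the motor neuron marker Slc18a3 fell. Their part in the changes of Egr1, Klf2 and Klf4 was not tested. Fewer cells of a type and less RNA per cell cannot be told apart.

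Ovary removal was examined in OVX against intact females. By edgeR 0 of the 8 genes were called, 1 had an unadjusted p under 0.05 and DESeq2 called 0, where 0.0335% of all 14910 genes tested were called. Egr1 was the gene with an unadjusted p under 0.05. The median log2 fold change of the 8 genes was -0.01, with 4 above and 4 below 0.

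Egr1 had a lowest, median and highest level of 5.05, 6.27 and 7.12 CPM in intact females. In OVX females these were 5.63, 7.92 and 9.14 CPM. OVX rats 1, 2, 5 and 6 lay above every intact female, and OVX rats 3 and 4 lay among them. Its log2 fold change was 0.31 (SE 0.13, 95% interval 0.04 to 0.58, adjusted p = 0.427). Over all 4 groups the mean level of Egr1 was lowest in intact males, followed by intact females at 6.20 ± 0.703 CPM (n = 6), GDX males, and OVX females at 7.67 ± 1.40 CPM (n = 6), and intact males and intact females, neighbors in this order, were not called different, nor were GDX males and OVX females, while intact females and GDX males were not tested against each other.

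The other genes had intervals that included 0 in OVX females. Fos had 5.91, 7.35 and 8.54 CPM (lowest, median and highest) in intact and 7.25, 8.35 and 9.14 CPM in OVX females. Its log2 fold change was 0.17 (95% interval -0.04 to 0.38). That of Dusp1 was -0.29 (-0.64 to 0.07) and that of Jun was 0.02 (-0.13 to 0.16). In the shorter class alone, with 2 intact females, the value for Dusp1 had the opposite sign, 0.16, and neither was called. Of the endothelial markers 1 of 5 was called in OVX females, Kdr (log2 fold change 0.77, adjusted p = 0.0966), and all 5 were higher at an unadjusted p under 0.05, with a median log2 fold change of 0.49 beside 0.54 in GDX males. The motor neuron markers had a median of -0.38, with 5 of 6 at an unadjusted p under 0.05, 0 called by edgeR and 1 by DESeq2. Meninges and fibroblasts had 0 of 7, also with 0 at an unadjusted p under 0.05 and 0 by DESeq2. An unadjusted p under 0.05 was also seen for 3 of 5 neuron markers (median -0.13), 2 of 2 erythroid markers (median 0.93) and 2 of 5 pericyte and smooth muscle markers (median 0.31). Of these lists edgeR called 0 markers, and DESeq2 called 2, 1 and 1. The part of these cell types in the value of Egr1 was not tested.

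**Figure D2:**
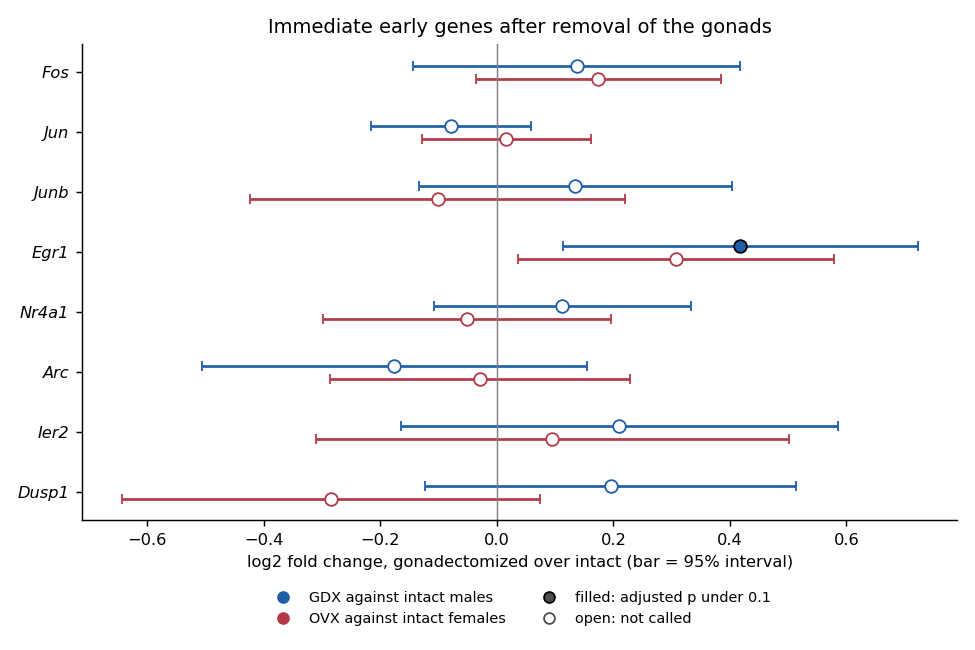
Log2 fold change of gonadectomized over intact rats (x axis) with its 95% interval for the 8 genes that passed the filter (y axis), males in blue and females in red. Egr1 in males, at 0.42, is the filled point, and its interval in females ran from 0.04 to 0.58.

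Whether the responses of the sexes differed was tested over all 22 rats. Of the 8 genes, 0 were called by edgeR, 0 had an unadjusted p under 0.05 and DESeq2 called 0, where 0.116% of all 15562 genes tested were called. The GDX response of Egr1 exceeded its OVX response by 0.11 (SE 0.19, 95% interval -0.28 to 0.51) on the log2 scale. Dusp1 had the difference farthest from 0, 0.48 (SE 0.25, 95% interval -0.02 to 0.99, adjusted p = 0.449), and in the shorter class alone it was -0.11.

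A comparison of gonadectomized with intact rats averaged over the sexes was added after the data had been seen, and it shares its samples with those above. It called 1 of 8 genes, Egr1, where 16% of all 15562 genes were called. The log2 fold change of Egr1 was 0.36 (SE 0.10, 95% interval 0.16 to 0.56, adjusted p = 0.0155). The call held without any single rat, at an adjusted p between 0.00548 and 0.0336. It was lost with class as a term (0.29, adjusted p = 0.249) and in the shorter class alone (0.29, adjusted p = 0.314). Of 25 other rapid response genes, Ier5, Klf2, Klf4 and Btg2 were higher and Dusp4 was lower, with log2 fold changes from 0.67 for Klf2 to -0.32 for Dusp4. Plk2 (0.25) and Ptgs2 (0.42) were higher and Vgf (-0.38) lower among the neuronal activity effectors, and Mapk3 (0.20) and Creb1 (0.17) were higher among the upstream kinases and factors. These were 20% of the rapid response genes, 27.3% of the effectors and 11.8% of the kinases and factors. With class as a term, 1 of the 5 rapid response genes stayed called, Btg2, and so did Mapk3, and in the shorter class alone Mapk3 was the only one of the 10 called, with an adjusted p of 0.127 for Btg2. There the log2 fold change was 0.69 for Btg2, 0.19 for Ier5, 0.74 for Klf2, 0.48 for Klf4, -0.38 for Dusp4, 0.13 for Plk2, 0.44 for Ptgs2, -0.29 for Vgf and 0.14 for Creb1. Dusp4 was called in 7 of 22 fits that left out a rat (adjusted p up to 0.175), those without intact male 3, GDX male 4, intact female 1 or 3 or OVX female 2, 4 or 5. Ptgs2 was called in 8 of 22 (adjusted p up to 0.134), those without intact male 2, GDX male 1 or 5, intact female 3, 5 or 6 or OVX female 4 or 6. Btg2 was lost without intact male 5 (adjusted p = 0.104) or GDX male 4 (0.109). Without a filter on low counts Dusp4 (adjusted p = 0.139) and Ptgs2 (0.131) were lost too, as was Dusp4 with RNA integrity number as a term (0.142).

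Cell type markers moved in this averaged comparison as well. All 7 markers of meninges and fibroblasts (median log2 fold change 0.91), all 5 endothelial markers (median 0.54), 4 of 5 pericyte and smooth muscle markers, 3 of 5 astrocyte markers, both erythroid markers (median 1.22) and 2 of 3 Schwann cell markers were called higher in gonadectomized rats by edgeR, where DESeq2 called 0 Schwann cell markers. Of the motor neuron markers 3 of 6 were called lower, as were 3 of 5 neuron markers. Their part in the changes of Egr1, Klf2 and Klf4 was not tested here either.

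The sex difference with gonads in place was examined in intact males against intact females. Dusp1 alone, 1 of the 8 genes, was lower in males, and 0 were higher, 12.5% against 4.01% of all 14937 genes tested. The median log2 fold change of the 8 genes was -0.22, with 7 of 8 below 0, and that of all genes was 0.00, with 51.0% above 0. An unadjusted p under 0.05 was seen for 4 of them, Fos, Jun, Junb and Dusp1.

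Dusp1 (ENSRNOG00000003977) had 5.96, 6.89, 5.90, 7.55 and 6.37 CPM in intact males 1, 2, 3, 5 and 6. In intact females its lowest, median and highest levels were 6.98, 9.70 and 14.5 CPM. Intact females 2, 3 and 5 were high, at 14.5, 11.1 and 13.8 CPM, and female 1 was the only one below an intact male. On the log2 scale males differed from females by -0.67 (SE 0.18, 95% interval -1.05 to -0.29, adjusted p = 0.0676). The high rats were all of the longer class: in that class the means were 6.07 ± 0.257 CPM in 3 males and 11.8 ± 2.97 CPM in 4 females, and in the shorter class 7.22 ± 0.467 CPM in 2 males and 7.65 ± 0.945 CPM in 2 females (mean ± SD). With class as a term the log2 fold change was -0.63 (adjusted p = 0.0827), and in the shorter class alone it was -0.08 (adjusted p = 0.910). The call was lost without intact male 1 (adjusted p = 0.162), 2 (0.117), 3 (0.120) or 6 (0.131) and without intact female 2 (0.113), 3 (0.123) or 5 (0.138).

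The AP-1 subunit genes were not called between intact males and females. The level of Jun in intact females had a lowest value of 70.5, a median of 72.0 and a highest value of 82.0 CPM. Intact males 1, 2, 3, 5 and 6 had 58.6, 72.5, 72.4, 60.4 and 67.7 CPM. Males 1, 5 and 6 lay below every intact female, and males 2 and 3 lay among them. The log2 fold change was -0.14 (SE 0.06, adjusted p = 0.259) for Jun, -0.40 (SE 0.17, adjusted p = 0.255) for Junb and 0.32 (SE 0.12, adjusted p = 0.214) for Fos, so Fos was the only gene of the 8 with a higher fitted level in males when all intact rats were fitted. With RNA integrity number as a term, Fos was also called (0.37, adjusted p = 0.0916), and without intact female 2 so was Junb (-0.50, adjusted p = 0.0954). Egr1 had -0.25 (SE 0.12, adjusted p = 0.332), Nr4a1 -0.18 (SE 0.12), Arc -0.09 (SE 0.13) and Ier2 -0.28 (SE 0.18). In the shorter class alone Nr4a1 turned to 0.13 (adjusted p = 0.840).

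Among the other rapid response genes, 2 of 25 were lower in intact males and 0 higher: Nfkbia, the gene of the NF-kappa-B inhibitor (log2 fold change -0.92, SE 0.16, adjusted p = 0.00948), and the clock gene Per1 (-0.81, SE 0.18, adjusted p = 0.0291). Of 8 glucocorticoid responsive genes 4 were lower and 0 higher, with a median of -0.63 and all 8 below 0: Sult1a1 (-1.60, SE 0.20, adjusted p = 0.000697), Sgk1 (-1.39, SE 0.33, adjusted p = 0.0343), Zbtb16 (-0.97, SE 0.24, adjusted p = 0.0445) and Fkbp5 (-0.46, SE 0.12, adjusted p = 0.0558). Glucocorticoids also induce Dusp1, Per1 and Nfkbia in many tissues, and their part in these differences was not tested. In the shorter class alone the log2 fold change was -0.08 for Sgk1, -0.10 for Zbtb16, -0.11 for Fkbp5, -0.43 for Nfkbia, 0.00 for Per1 and -1.72 for Sult1a1, and none of the 6 was called. Fkbp5 was also lost without intact male 1 or 5 or intact female 3 or 5 (adjusted p up to 0.150), and Zbtb16 without intact male 1 or 2 (adjusted p up to 0.102). Of the AP-1 relatives, neuronal activity effectors, upstream kinases and heat shock genes, 0 were called by edgeR, with 2, 1, 1 and 0 at an unadjusted p under 0.05 and 0, 1, 0 and 0 called by DESeq2. The called shares were 8% of the rapid response genes and 50% of the glucocorticoid responsive genes, against 4.01% of all genes tested. Of 7 markers of meninges and fibroblasts 5 were lower in intact males (median -1.23), with summed levels of 436 ± 110 CPM in males (SD, n = 5) and 906 ± 284 CPM in females (n = 6). Of 3 Schwann cell markers 2 were lower (median -1.50), with summed levels of 7.18 to 40.4 CPM in males and 34.2 to 84.3 CPM in females. The endothelial marker Cdh5 was also lower and the neuron marker Snap25 higher in males. The part of these cell types in the difference of Dusp1 was not tested.

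The same question without gonads was examined in GDX males against OVX females, where all libraries were of the shorter class. Of the 8 genes, 0 were called by edgeR, 2 had an unadjusted p under 0.05 and DESeq2 called 0, where 0.232% of all 15084 genes tested were called. Jun had 67.3, 61.2, 63.2, 58.7 and 63.1 CPM in GDX males 1, 2, 4, 5 and 6. In OVX females its lowest, median and highest levels were 62.4, 71.7 and 85.7 CPM. All OVX females except rat 5 lay above every GDX male. The log2 fold change of Jun was -0.24 (SE 0.07, 95% interval -0.39 to -0.08, adjusted p = 0.319). That of Fos was 0.29 (SE 0.11, 95% interval 0.06 to 0.51, adjusted p = 0.394), with GDX males 2, 4 and 6 above every OVX female. That of Dusp1 was -0.19 (SE 0.14, 95% interval -0.49 to 0.12). Of the glucocorticoid responsive genes 1 of 8 was called, Sgk1, lower in males (-0.65, SE 0.11, adjusted p = 0.0173). This call was lost in a joint fit of all 22 rats (-0.65, adjusted p = 0.386) and held without any single rat (adjusted p up to 0.0811).

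**Figure D3:**
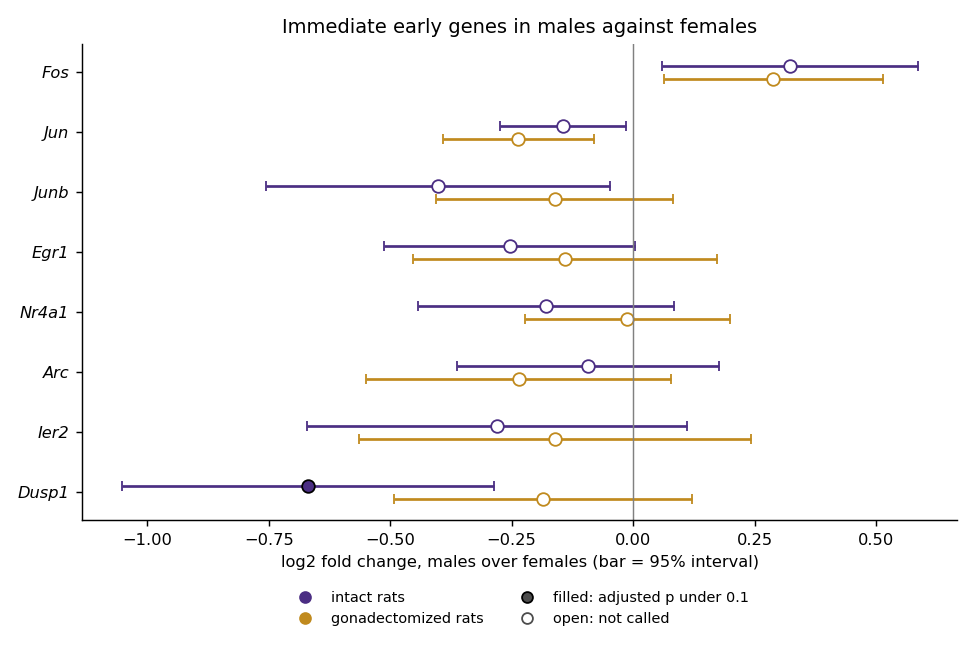
Log2 fold change of males over females (x axis) with its 95% interval for the 8 genes (y axis), in intact rats (purple) and gonadectomized rats (ochre). Dusp1 in intact rats, at -0.67, is the filled point, and Fos lies above 0 in both, at 0.32 and 0.29.

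A comparison of males with females averaged over gonadal state was also added after the data had been seen and draws on the same rats. It called 3 of 8 genes, where 3.05% of all 15562 genes tested were called. Fos was higher in males (log2 fold change 0.30, SE 0.08, adjusted p = 0.055), and Jun (-0.19, SE 0.05, adjusted p = 0.0507) and Dusp1 (-0.43, SE 0.12, adjusted p = 0.0735) were lower. Fos and Jun, whose products pair in the AP-1 factor, thus had opposite signs. The call of Fos was lost without intact male 2 (adjusted p = 0.105) or GDX male 2 (0.111) and that of Jun without intact male 1 (0.103). The call of Dusp1 was lost without intact male 1, 3 or 6, GDX male 1, 4 or 6, intact female 2, 3 or 5 or OVX female 1 or 6, with adjusted p from 0.107 to 0.136. In the shorter class alone the log2 fold change was 0.31 for Fos, -0.17 for Jun and -0.13 for Dusp1, and none of the 3 was called. In the lists, Nfkbia (-0.73), Per1 (-0.58) and Sik1 (-0.25) were lower among 25 rapid response genes and 5 of 8 glucocorticoid responsive genes were lower, namely Sult1a1 (-0.92), Sgk1 (-1.02), Zbtb16 (-0.71), Fkbp5 (-0.31) and Errfi1 (-0.31). The kinase gene Rps6ka5 (0.12) was higher. In the shorter class alone 0 of the 3 rapid response genes, 1 of the 5 glucocorticoid responsive genes and not Rps6ka5 (adjusted p = 0.320) were called by edgeR. The one called was Sult1a1 (-0.98, adjusted p = 0.0909), and the log2 fold change was -0.48 for Nfkbia, -0.18 for Per1, -0.20 for Sik1, -0.36 for Sgk1, -0.28 for Zbtb16, -0.14 for Fkbp5 and -0.09 for Errfi1 (adjusted p from 0.139 to 0.692). Sik1 was also lost without intact male 1 or 3 or GDX male 4 (adjusted p up to 0.116) and Errfi1 without GDX male 4 (0.105). Of the markers, 2 of 3 of Schwann cells, 2 of 7 of meninges and fibroblasts (median -0.60, 6 at an unadjusted p under 0.05) and endothelial Cdh5 were lower in males, and their part in these differences was not tested.

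Fragment class itself was compared within the 11 intact rats with sex as a term. Of the 8 genes, 0 were called by edgeR, 0 had an unadjusted p under 0.05 and DESeq2 called 0, where 0.00649% of all 15401 genes tested were called. The log2 fold change of the longer over the shorter class was -0.11 (SE 0.12) for Egr1, 0.23 (SE 0.18) for Dusp1, 0.24 (SE 0.12) for Nr4a1 and -0.21 (SE 0.12) for Arc. This fit gives 1 class difference for both sexes. For Dusp1 the shorter and longer class means ran in opposite directions, 7.22 and 6.07 CPM in intact males and 7.65 and 11.8 CPM in intact females. For Nr4a1 they were 7.43 and 7.46 CPM in intact males and 6.83 and 9.29 CPM in intact females. Of the glucocorticoid responsive genes, 0 were called by edgeR and 1 by DESeq2, and 5 of 8 had an unadjusted p under 0.05, with a median of 0.31. All 6 motor neuron markers had an unadjusted p under 0.05, with a median of 0.40, and edgeR called 0 and DESeq2 2 of them.

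Finally, the genes were compared with each other from rat to rat, with log2 CPM centered within each group. Over 22 rats and 28 pairs of the 8 genes, 14 correlations were positive and 14 negative, with a median Pearson r of 0.0132. The strongest was between Egr1 and Arc (r = 0.434, permutation p = 0.0683, adjusted p = 0.875; Spearman rho = 0.567, permutation p = 0.0102, adjusted p = 0.286). Without the 2 rats farthest from the median of Egr1, r was 0.480. Fos and Jun had an r of 0.335 (permutation p = 0.129; rho = 0.408, permutation p = 0.0728), and 0.257 without the 2 rats farthest from the median of Fos. Nr4a1 and Dusp1 had an r of 0.409 (permutation p = 0.188; rho = 0.298, permutation p = 0.259), which fell to 0.190 without the 2 rats farthest from the median of Nr4a1. No pair passed after adjustment over the 28 pairs, in two-sided tests.

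**Figure D4:**
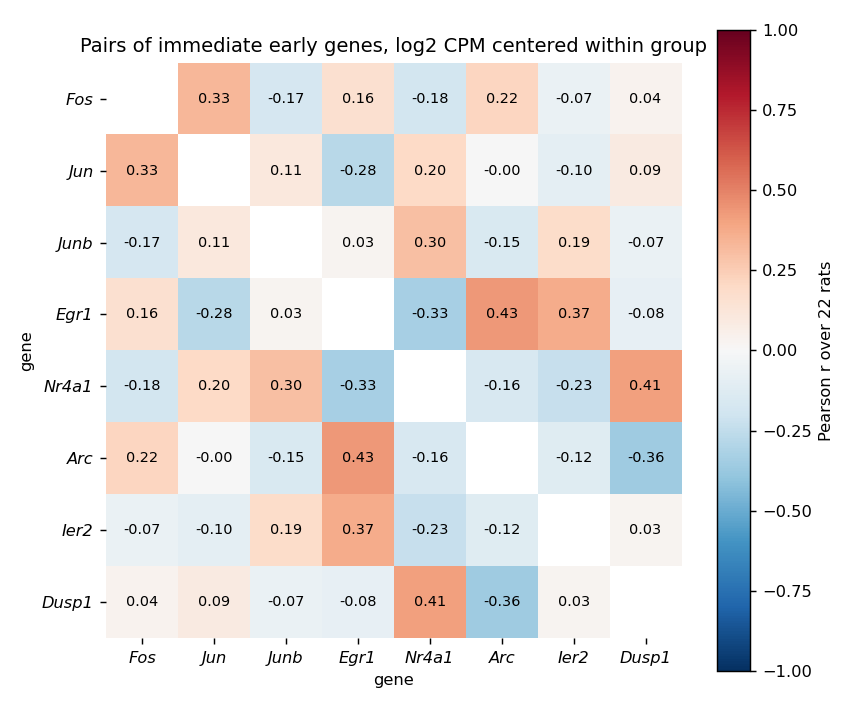
Pearson r over 22 rats between each pair of the 8 genes on both axes, from log2 CPM centered within group. Values ran from -0.357 for Arc and Dusp1 to 0.434 for Egr1 and Arc.

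The 8 other genes most like the mean of the scaled levels of these 8 genes over the 22 rats were Vwf (r = 0.819), AABR07053870.1 (0.775), Klhl21 (0.757), Dab2ip (0.719), Slc7a5 (0.719), Ccdc130 (0.713), Arhgef17 (0.713) and Pcnx1 (0.708). Vwf encodes von Willebrand factor of endothelial cells. These values describe the highest of many correlations.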

How the data were processed

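The values used were the deposited counts, which the authors had made per gene and not normalized, in 22 libraries of ventral cervical cord, 1 per rat. The submitters' processing notes name FastQC, TopHat2 2.0.13, Subread and edgeR with the build Rnor_6.0, whereas the study's methods name Hisat2 as aligner, and which aligner made these counts was not settled. A stranded kit is named in the methods, but the strand and multi-mapping settings of the counting are not given in the sources used here. Every column was matched to a rat by its name, and 0 columns had no sample. Totals ran from 12371756 to 17571887 reads. Pairs of libraries of a group differed by more than sampling noise (chi-square per degree of freedom at least 5.06).

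Tests were run in R 4.3.3 with edgeR 4.0.16, using filterByExpr, TMM factors, glmQLFit and glmQLFTest on the rats compared. The difference of responses, the fragment class comparison and the averaged comparisons used all 22 or all 11 intact rats. P-values were adjusted by Benjamini-Hochberg over all genes tested, and DESeq2 1.42.0 was an alternative. CPM values used TMM factors over 22 libraries, log2 CPM a prior count of 2, and correlations 100000 two-sided permutations within groups. The scripts were tested on simulated data.

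The 10 genes and the lists were chosen with earlier results of these data known. Named were all 10 genes, each called gene of 6 context lists up to 6 per list and comparison, and the 8 other genes most like the mean of those that passed the filter. From the lists, genes absent from the table or below the filter were not tested. Alternatives were RLE factors, DESeq2, other filters, a level of 0.05, RNA integrity number or fragment class as a term, shorter class libraries only, a joint fit of all rats, blocking on rat number, and leaving out each rat.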

Additional observations from a re-analysis of the deposited data

Results flagged for a closer look

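A rat far from the others of its group was sought in the 10 genes by 4 groups, 40 sets of values of which chance gives about 1 in 20, and 3 were found. Jun in intact female 5 was 82.0 CPM, where the other 5 intact females ran from 70.5 to 73.5 CPM. Ier2 in intact male 2 was 3.56 CPM, where the other 4 intact males ran from 2.41 to 2.55 CPM. Ier2 in OVX female 6 was 5.54 CPM, where the other 5 OVX females ran from 2.65 to 3.47 CPM. The Dusp1 values of intact females 2, 3 and 5 were not single values and did not meet this rule.

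Among the genes of the context lists, Sult1a1, which encodes a sulfotransferase, passed the test for a difference between the responses to GDX and OVX. It had 1.28, 1.19, 1.97, 1.36 and 1.51 CPM in intact males 1, 2, 3, 5 and 6 and 1.73, 2.25, 2.90, 4.26 and 3.78 CPM in GDX males 1, 2, 4, 5 and 6. Intact females ran from 3.10 to 5.74 CPM and OVX females from 2.89 to 4.28 CPM, so GDX males lay between intact males and the females in mean level. The GDX response exceeded the OVX response by 1.36 on the log2 scale (SE 0.30, edgeR adjusted p = 0.0973), and this call was kept in 5 of 22 fits that left out a rat, those without intact male 3, GDX male 1 or 2, intact female 1 or OVX female 1 (adjusted p up to 0.255 in the others). It was kept with RLE factors, by DESeq2 and without a filter, and lost with a filter at 1 CPM (adjusted p = 0.101), RNA integrity number (0.113), fragment class (0.116) or rat number (0.172) as a term and in the shorter class alone (0.406), with a log2 difference of at least 1.20 in every fit. Cell type markers moved in the same test. Of 7 markers of meninges and fibroblasts 6 had an unadjusted p under 0.05 (median 1.30), with 0 called by edgeR and 1 by DESeq2. All 3 Schwann cell markers had an unadjusted p under 0.05 (median 1.00), with 0 called by either. The part of these cell types in the difference of Sult1a1 was not tested.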

How the results depend on the processing

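Values for OVX against intact females, the difference of responses, GDX males against OVX females and fragment class stayed at 0 genes called under every setting run, leaving out each rat included. In GDX against intact males, where 1 gene was called, none, that is 0, passed at a level of 0.05, without a filter, with RNA integrity number or fragment class as a term, in the shorter class and with the rat number as a block, and 0 to 1 without single rats. In intact males against intact females, where 1 was called, 0 were called at 0.05 and in the shorter class, 2 with RNA integrity number as a term, 1 with the block, and 0 to 1 without single rats. For gonadectomy averaged over the sexes, a count of 1 went to 0 with class as a term and in the shorter class. For sex averaged over gonadal state, a count of 3 went to 0 at 0.05 and in the shorter class, to 1 with the block, and to 1 to 3 without single rats. The log2 fold change of Per1 in intact males against intact females turned from -0.81 to 0.0015 in the shorter class. The causes were not tested, and the shorter class holds only 2 intact rats of each sex. The correlation of Egr1 and Arc kept its sign and side, at 0.391 to 0.465 under other scales and samples and 0.351 to 0.518 without single rats.

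Rat numbers shared by groups showed no pairing in the correlation of deviations over genes. Of 4 numbers in males, 6 in females and 5 in intact males against intact females, 0 had a correlation over 0.1. Such correlations cannot exclude a shared cage or batch, so the blocked fits are given as an alternative only. In the blocked fit Egr1 in GDX males had a log2 fold change of 0.45 (adjusted p = 0.106) and Dusp1 in intact males against females -0.69 (adjusted p = 0.0627). Fragment class cannot be fitted as a term in GDX males against OVX females. Among log2 fold changes of the 8 genes over all comparisons and settings, 1436 of 1480 kept their side of the threshold, 41 lost and 3 gained a call, and 0 called values changed sign. Most of these values had no call in the main fit and so had none to lose. The 41 losses all fell on the called values, those of Egr1, Dusp1, Fos and Jun, so the total is no measure of how stable the calls were.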

Other observations

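Dusp1 was also compared from rat to rat with 10 genes picked after their values were seen, the 8 glucocorticoid responsive genes and Nfkbia and Per1. The adjustment over these 10 relations does not cover that choice, and Nfkbia was also the second closest to Dusp1 of all genes compared, so the p-values describe these rats and are no independent test. Over 22 rats, with log2 CPM centered within group, all 10 Pearson correlations were positive, and 6 had an adjusted p under 0.1 over the 10 relations. Nfkbia followed Dusp1 most closely (r = 0.786, permutation p = 0.00087, adjusted p = 0.0087; Spearman rho = 0.679, permutation p = 0.00511, adjusted p = 0.0255). Errfi1, which encodes an inhibitor of the EGF receptor, had r = 0.711 (permutation p = 0.0124, adjusted p = 0.0415; rho = 0.630, permutation p = 0.0170). The cell cycle inhibitor gene Cdkn1a had r = 0.595 (permutation p = 0.00314, adjusted p = 0.0157; rho = 0.599, permutation p = 0.00498). Without the 2 rats farthest from the median of Dusp1, r was 0.691 for Nfkbia, 0.594 for Errfi1 and 0.536 for Cdkn1a. When single rats were left out, Nfkbia and Cdkn1a kept an adjusted p under 0.1 in every case, and Errfi1 lost it without GDX male 5 (adjusted p = 0.108) or intact female 2 (0.115).

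With values centered within group and fragment class, r was 0.699 for Nfkbia (permutation p = 0.00613), 0.635 for Errfi1 (permutation p = 0.0266), 0.531 for Cdkn1a (permutation p = 0.0210) and 0.616 for Sult1a1 (permutation p = 0.0225), and 4 of 10 had an adjusted p under 0.1. The value of Sult1a1 centered within group alone, 0.483 (adjusted p = 0.0863), missed 0.1 without GDX male 1, 4 or 5, intact female 1, 2, 3, 5 or 6 or OVX female 1 (adjusted p up to 0.158). Sgk1 went from r = 0.654 (adjusted p = 0.0601) to 0.432 (0.319) and Pdk4 from 0.633 (adjusted p = 0.0601) to 0.435 (0.319), so these 2 relations did not pass within class. Centered within group alone, both missed 0.1 without GDX male 5 (adjusted p = 0.108), intact female 1 (0.158) or intact female 2 (0.150). The adjusted permutation p of Spearman rho was 0.104 for both. For Per1 r went from 0.519 to 0.121 and for Zbtb16 from 0.501 to 0.174, neither with an adjusted p under 0.1 in either form. In the 15 libraries of the shorter class alone, 0 of the 10 passed after adjustment (adjusted p from 0.397 to 0.844). There r was 0.648 for Nfkbia, 0.543 for Sult1a1, 0.527 for Cdkn1a, 0.447 for Errfi1 and 0.229 for Pdk4, near 0 for Sgk1 (0.0789) and Fkbp5 (0.0731), and negative for Tsc22d3 (-0.245), Zbtb16 (-0.230) and Per1 (-0.161).

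Single genes most like 1 immediate early gene over the 22 rats differed from gene to gene. Grasp was closest to Dusp1 (r = 0.810), Dkk2 to Egr1 (r = 0.793), Cpxm2 to Junb (r = 0.780) and Tpcn1 to Nr4a1 (r = 0.829), as the highest of many correlations.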
